A study of Homo sapiens with 12 samples.

Results

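Chaperones and chaperonins are proteins that help other proteins fold, and their genes were followed here through RNA-seq counts of exons and introns. The genes were chosen by a rule on symbols, which was set with earlier results of these data known. It covered the HSPA to HSPH families, HSP90A, the DNAJA, DNAJB and DNAJC families, the CCT subunits, TCP1 and HSF1. Left out were 4 genes of the endoplasmic reticulum (HSPA5, DNAJB9, DNAJB11 and DNAJC3). This rule took 75 of the 17508 genes in the count table. They comprised 13 HSP70 and HSP110 genes, 2 HSP90 genes, 2 genes for HSP60 and HSP10, 7 small HSP genes, 4 DNAJA, 10 DNAJB and 24 DNAJC genes, 10 chaperonin genes, HSF1, the read-through gene HSPE1-MOB4, and HSPG2. The last of these encodes perlecan, a proteoglycan of the basement membrane and no chaperone, and came in through its symbol. Not every member acts in the cytosol: HSPA9, HSPD1, HSPE1, DNAJA3, DNAJC11, DNAJC15, DNAJC19 and DNAJC30 encode mitochondrial proteins, and HSPA13, DNAJC1 and DNAJC10 proteins of the endoplasmic reticulum. HSPA2, DNAJB12 and DNAJC14 were not analysed here.

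The libraries were labelled TYK-nu, a cell line from a high-grade serous ovarian adenocarcinoma. Cells had received 15 µM cisplatin, a platinum drug that crosslinks DNA, or the solvent DMSO, for 24 or 72 h, with 3 libraries in each of the 4 groups. Poly(A) RNA was made into strand-specific libraries. Exon plus intron counts per library added up to between 18526830 and 68753262, of which 6.26 to 7.17% were intron counts. The protocols describe triplicates of grown and treated cells. In general, the paper says that unless a legend differs its experiments were independently repeated at least 3 times. It does not say of these libraries whether each was a culture of its own, so the p-values measure only the spread between these samples.

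Markers of the tissue named by the label were mostly low, and no reference profile of TYK-nu was compared. Among 10 markers of serous or Mullerian epithelium with an exon entry, 6 had a mean under 1 over the 12 libraries in exon counts per 1000000 exon counts of the library, scaled by TMM (exon CPM), and SOX17 and CDH1 were at 0 in all of them. PAX8 had a mean of 0.0215, KRT7 of 0.0599, EPCAM of 0.830, KRT19 of 2.06, WT1 of 2.58 and KRT8 of 22.4 CPM. The markers summed to between 170.0 and 201 CPM in a library, most of it from KRT18, with a mean of 157. By contrast, 2 of 3 endothelial markers were high, PECAM1 with a mean of 1933 and CDH5 with a mean of 859 CPM, while VWF had 0.646. Their sum was between 3355 and 3479 CPM in the libraries of 24 h and between 2033 and 2307 in those of 72 h. Further genes were looked up after these values were seen. TIE1 had 1649 to 2571 CPM, MMRN1 1750 to 2157, ESAM 369 to 490 and KDR 243 to 289. FLI1 had 197 to 272, ROBO4 159 to 184 and TEK 135 to 154, whereas EMCN had at most 0.0957. Of the mesenchymal markers, VIM had a mean of 7658 CPM and CDH2 was at 0 in all libraries. Of the leukocyte markers, CD68 had a mean of 493 and PTPRC was at 0 in all, and the 3 fibroblast markers with an exon entry summed to at most 0.213. All 12 libraries showed this pattern, and the groups are therefore called libraries labelled TYK-nu; the identity of the cells was not tested beyond these markers.

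Chaperones of the HSP70 family bind short hydrophobic stretches of unfolded proteins in a cycle driven by ATP, in which J-domain proteins (DNAJ) deliver clients and stimulate the ATPase. HSP90 acts later on clients such as kinases and steroid receptors, and the ring-shaped chaperonin CCT folds actin and tubulin in an enclosed chamber. The transcription factor HSF1 binds heat shock elements, repeats of the bases NGAAN in alternating orientation, and drives many of these genes when unfolded proteins accumulate.

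An exon entry was present for 74 of the 75 members, an intron entry for 66 and both for 65. Exon counts were 0 in all 12 libraries for 9 members: DNAJB3, DNAJB7, DNAJB8, DNAJB13, DNAJC15, HSPA12A, HSPB3, HSPB7 and CCT8L2. A count of 0 allows up to 0.0469 to 0.173 exon CPM before scaling, depending on the depth of the library (3 counts, for counting error only). HSPB1, whose protein is the small heat shock protein HSP27, had no exon entry and only 1 to 13 intron counts in a library. None of the 7 small HSP genes reached the filter on low counts. After this filter, 59 members were tested on exon counts and 50 on intron counts.

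Per length of exon sequence, HSP90AB1, the constitutive cytosolic HSP90, had the highest mean level of the members with 797 exon CPM per kb over the 12 libraries. HSPA8, the constitutive HSP70 (HSC70), followed with 379, HSP90AA1, the inducible HSP90, with 376, and the chaperonin subunits CCT4 and CCT6A with 239 and 184. The order depended on time. In DMSO at 24 h, HSPA8 had 629.8 ± 19.3 and HSP90AA1 574 ± 31.5 exon CPM per kb (SD, n = 3), whereas at 72 h HSPA8 had 136 ± 6.27 and HSP90AA1 180.4 ± 7.28. CCT4, with 276 ± 6.88 at 24 h and 206 ± 6.75 at 72 h, was below both at 24 h and above both at 72 h. HSP90AB1 led in each group, with 1093 ± 30.9 at 24 h and 497 ± 11.9 at 72 h in DMSO. These lengths join the exons of all annotated isoforms, so the level of a gene with long, rarely used exons is understated. The inducible HSP70 genes had low values, HSPA1A at 11.5 and HSPA1B at 9.90 exon CPM per kb, which reads matching both genes may understate. HSPA6 at 0.251 was the lowest of the 59 tested.

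**Figure D1:**
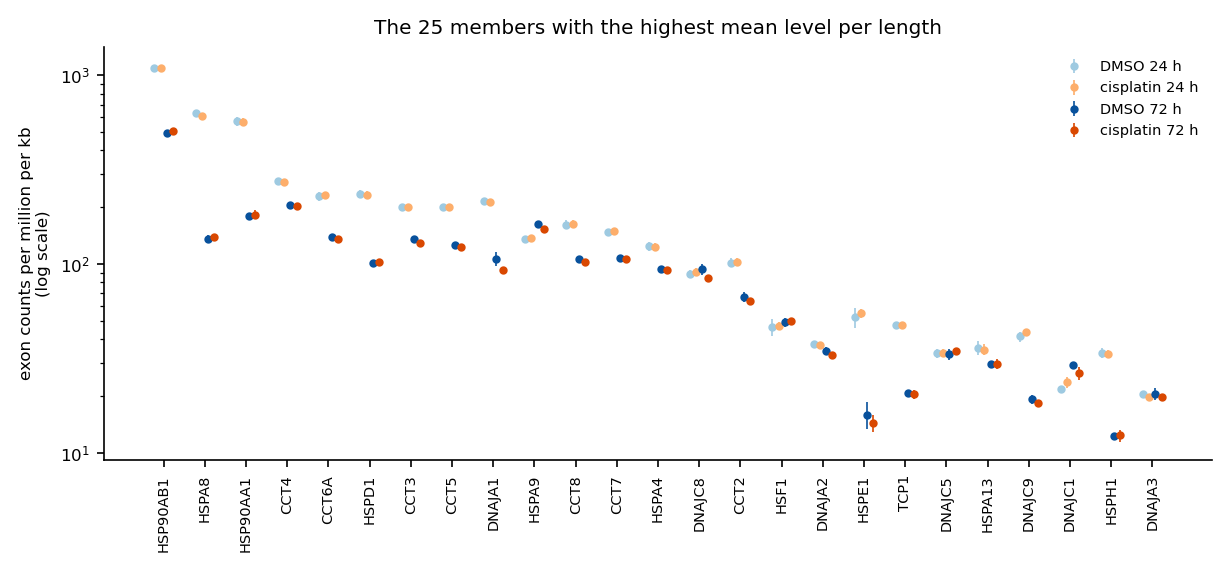
Mean level per length of the 25 members with the highest mean, in exon CPM per kb of joined exon sequence on a log axis; points are group means and bars the SD of 3 libraries. HSP90AB1 is the highest in each group, and the points of HSPA8 at 72 h lie below those of HSP90AA1 and CCT4, in contrast to 24 h.

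Together, the members took 2.13, 2.24 and 2.27% of the exon counts in the 3 DMSO libraries of 24 h and 2.25, 2.13 and 2.23% in those with cisplatin. At 72 h they took 1.24, 1.27 and 1.25% in DMSO and 1.29, 1.23 and 1.22% with cisplatin. The share was thus lower in all 6 libraries of 72 h than in any of 24 h, while cisplatin and DMSO libraries of the same time overlapped. HSPA8 alone went from 0.288 to 0.314% of exon counts at 24 h to between 0.0629 and 0.0708% at 72 h. In these bulk libraries, fewer cells with a transcript and less of it per cell cannot be told apart.

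The first question of the design was whether cisplatin altered these transcripts at a given time. At 24 h, 0 of the 59 members passed an adjusted p of 0.05 by the edgeR quasi-likelihood test, and also 0% of all 10444 genes tested. Neither did any member have an unadjusted p under 0.05, against 2.49% of all genes, and DESeq2 called 0 members. The fitted log2 differences of the members lay between -0.15 and 0.25, with a median of 0.01 (0.00 over all genes). HSPA8 differed by -0.05 (95% confidence interval -0.15 to 0.05), HSP90AA1 by -0.02 (-0.13 to 0.09) and HSPA1A by 0.07 (-0.12 to 0.27).

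At 72 h, again 0 of the 59 members passed by edgeR, against 0.0287% of all genes, 3 in number. At an unadjusted p under 0.05 there were 10 members (16.9%, against 12.6% of all genes), and DESeq2 called 1 (1.69%, against 0.756% of all genes, 79 in number). These shares of DESeq2 are over all genes in its fit, although only 32 of the 59 members and 4167 of 10443 genes had an adjusted p. Among the members, log2 differences between cisplatin and DMSO ranged from -0.36 to 0.81, with a median of -0.03 (0.00 over all genes). The heat shock genes that are most strongly induced by unfolded proteins showed differences near 0, with -0.07 for HSPA1A (-0.30 to 0.17), 0.00 for HSPA1B (-0.22 to 0.23) and -0.07 for DNAJB1 (-0.19 to 0.05). HSPA8 differed by 0.04 (-0.06 to 0.14). For HSPA6, whose counts were few, the difference of 0.81 had a wide interval, -0.32 to 1.94, and was not detectable at this depth. HSF1 itself differed by 0.02 (-0.11 to 0.15).

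The members nearest the threshold at 72 h were HSPG2, DNAJC19 and DNAJA1, of which DNAJC19, a J protein of the mitochondrial import motor, was singled out after its values were seen. HSPG2 had 20.4, 20.7 and 21.2 exon CPM in DMSO and 26.9, 24.7 and 30.5 with cisplatin. The 3 cisplatin libraries were above the 3 DMSO libraries, with a log2 difference of 0.39 ± 0.10 (SE) and an edgeR adjusted p of 0.151. DNAJA1, a main J-domain partner of cytosolic HSP70, had 311, 278 and 265 in DMSO and 254, 239 and 248 with cisplatin. Here the cisplatin libraries were lower without overlap, by -0.20 ± 0.06 on the log2 scale (edgeR adjusted p = 0.159), and it was the 1 member that DESeq2 called (-0.21). Without the third DMSO library of 72 h, DNAJA1 (-0.25) and DNAJC19 (-0.48) passed in edgeR, 3.39% of the members against 0.685% of all genes in that fit. With no filter on low counts, 3 members passed, HSPG2 (0.39), DNAJA1 (-0.21) and DNAJC19 (-0.36), or 4.62% of 65, against 1.17% of all 13148 genes in that fit, so the count for cisplatin at 72 h depended on the tool, the filter and this library.

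The passage of time separated the libraries far more. Between 24 and 72 h in DMSO, 10 of the 59 members rose and 33 fell by edgeR, that is 72.9% of the members against a background of 65.1% of all genes, 32.6% higher and 32.5% lower. TMM scaling holds the middle of all genes near 0, so changes of the members are relative to it: they had more falls than rises, with a median log2 change of -0.30, against 0.01 over all genes. With cisplatin, 7 members rose and 33 fell, or 67.8%, against 63.5% of all genes, 32% higher and 31.5% lower, with medians of -0.29 for the members and 0.02 for all genes. The share of members that changed in either direction was near the background in both treatments and is no result about them. The libraries of these comparisons are separate, and 29 falls were shared, 87.9% of either list, as were 7 rises, 70% of those in DMSO and 100% of those with cisplatin. Over all genes, 84.9 and 87.4% of the falls were shared and 84.8 and 86.4% of the rises, so this overlap too is near the background.

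**Figure D2:**
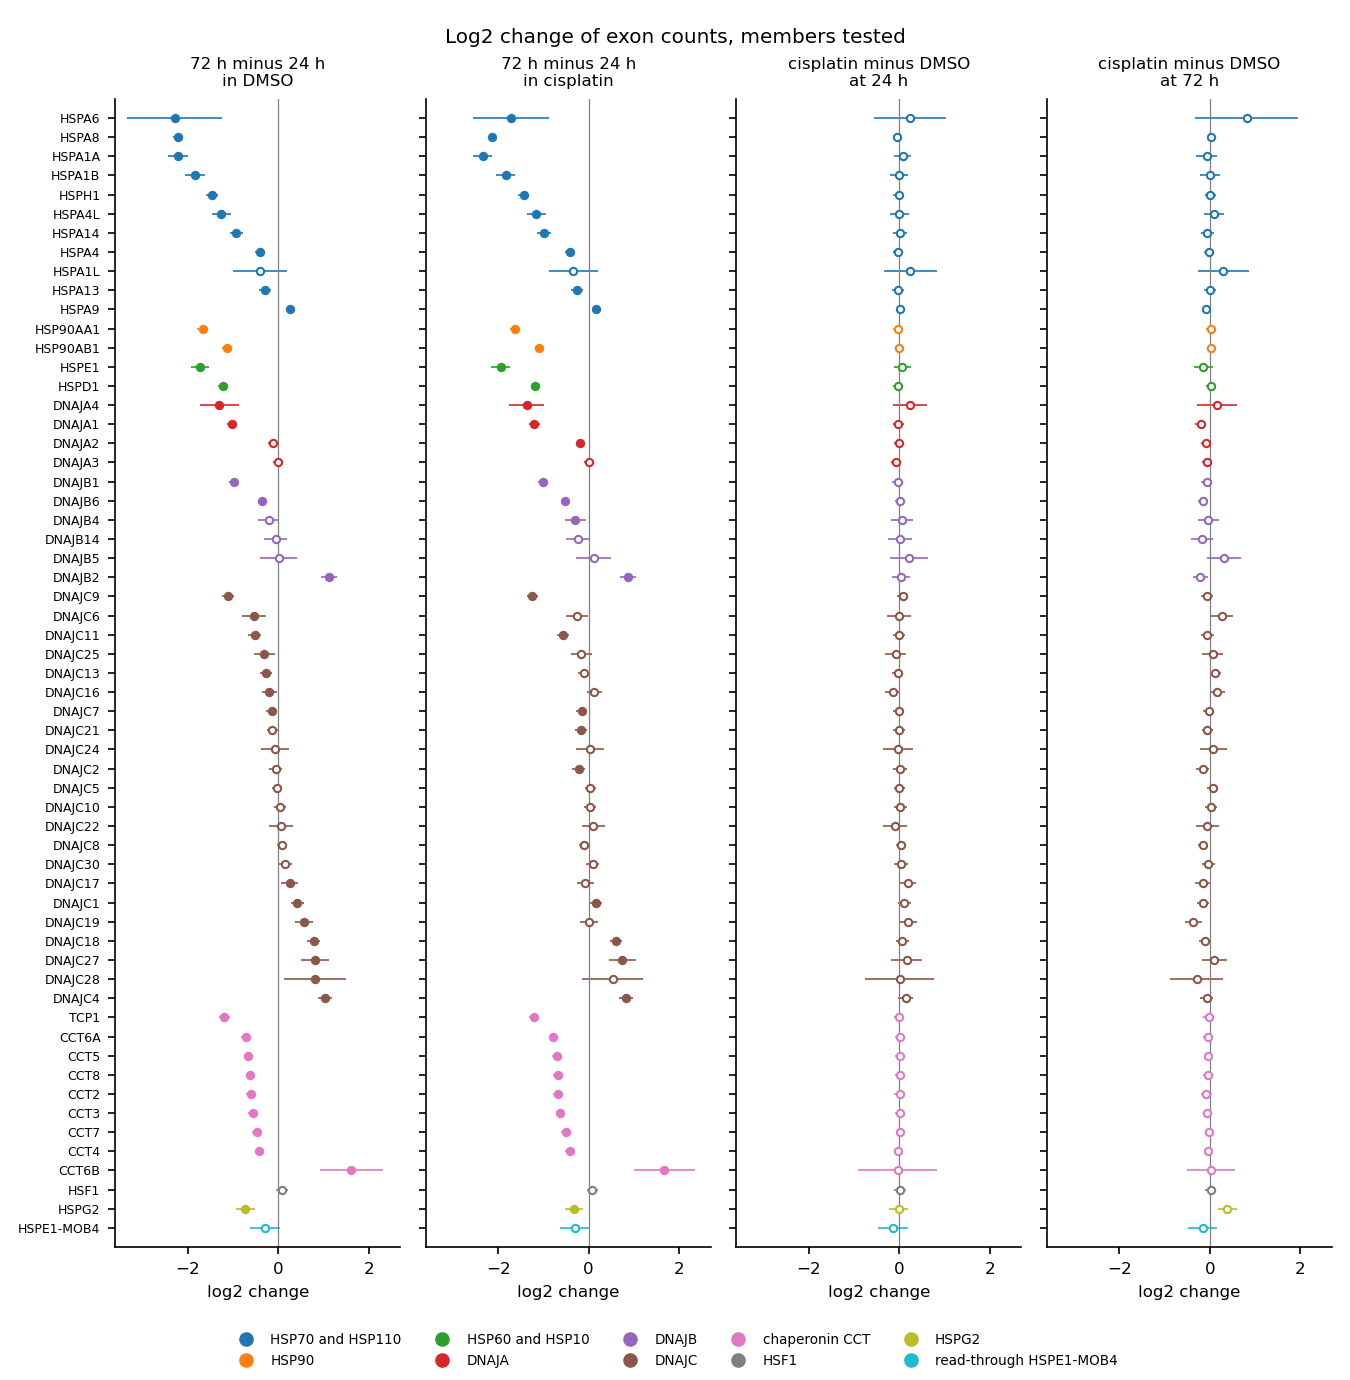
Log2 change of exon counts with its 95% confidence interval for the 59 members tested, ordered by family and by their change in DMSO; filled points have an adjusted p under 0.05. In both time comparisons most HSP70, HSP90 and chaperonin genes lie left of 0 and DNAJ genes lie on both sides of it, and no point is filled for cisplatin against DMSO.

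In DMSO the 4 largest falls among the members were those of the HSP70 genes HSPA6 (-2.29), HSPA8 (-2.21), HSPA1A (-2.20) and HSPA1B (-1.84). Since HSPA6 had only 1, 10 and 5 exon counts in the DMSO libraries of 72 h, its size and place in this order are uncertain. It met the filter on low counts through its libraries of 24 h, where it was high, so its fall was favoured by the filter. With cisplatin HSPA1A (-2.34) and HSPA8 (-2.13) led, followed by HSPE1 (-1.94), ahead of HSPA1B (-1.84) and HSPA6 (-1.72). HSPA8 (ENSG00000109971, chr11:123057489-123063230 on the minus strand of GRCh38) had 2979.5, 3159 and 3023 exon CPM in DMSO at 24 h and 626, 686 and 663 at 72 h. With cisplatin, it had 2888, 2907 and 3071 at 24 h and 650.1, 705 and 672 at 72 h. Every library of 72 h was below every library of 24 h, and the treatments overlapped at both times. The fall was 4.64-fold in DMSO (log2 change -2.21 ± 0.05 SE, edgeR adjusted p = 2.44e-20) and 4.37-fold with cisplatin (-2.13 ± 0.05, adjusted p = 3.67e-20). Its span also holds the small nucleolar RNA genes SNORD14C, SNORD14D and SNORD14E.

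The inducible genes HSPA1A and HSPA1B lie next to each other on chromosome 6 and encode nearly the same protein. Reads that match both may be split between them or left uncounted, so their values are uncertain. HSPA1A had 48.8, 42.4 and 42.4 exon CPM in DMSO at 24 h and 11.4, 8.27 and 9.47 at 72 h. With cisplatin it had 51.1, 48.2 and 40.9, then 9.32, 8.45 and 10.2. HSPA1B had 41.8, 37.4 and 37.8 and then 12.2, 9.78 and 10.8 in DMSO, and 38.4, 42.3 and 35.7 and then 9.02, 11.5 and 12.4 with cisplatin. For both genes the libraries of 72 h were all lower. The log2 changes were -2.20 ± 0.11 in DMSO and -2.34 ± 0.10 with cisplatin for HSPA1A, and -1.84 ± 0.10 in each for HSPA1B.

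HSPA6, a strictly stress-inducible HSP70, stood at 0.959, 0.838 and 0.754 exon CPM in DMSO at 24 h and 0.0396, 0.379 and 0.120 at 72 h. With a mean of only 16.4 counts per library, its log2 change of -2.29 had a standard error of 0.50 (edgeR adjusted p = 0.000357). HSPH1 (HSP110), a nucleotide exchange factor that opens HSP70 for its next client, had 271, 275 and 303 in DMSO at 24 h and 100.0, 104 and 105 at 72 h. Its level was lower in each library of 72 h, by -1.46 ± 0.06 on the log2 scale, and by -1.43 ± 0.06 with cisplatin, where it went from 295, 267 and 278 to 112, 97.1 and 102.

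In the family of 13 HSP70 and HSP110 genes, 11 were tested, of which 9 fell (81.8%, against 32.5% of all genes) and 1 rose in DMSO, with the same counts in cisplatin (against 31.5%). The 9 include HSPA6, which the filter kept through its libraries of 24 h. The 1 that rose was HSPA9 (mortalin), the HSP70 of the mitochondrial matrix. It had 1287, 1353 and 1365 exon CPM in DMSO at 24 h and 1578, 1628 and 1582 at 72 h, and 1370.3, 1304 and 1371 and then 1525, 1508 and 1481 with cisplatin. The libraries of 72 h were higher without overlap in both treatments, though by little, 1.20-fold in DMSO (log2 change 0.26 ± 0.04) and 1.12-fold with cisplatin (0.16 ± 0.04).

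**Figure D3:**
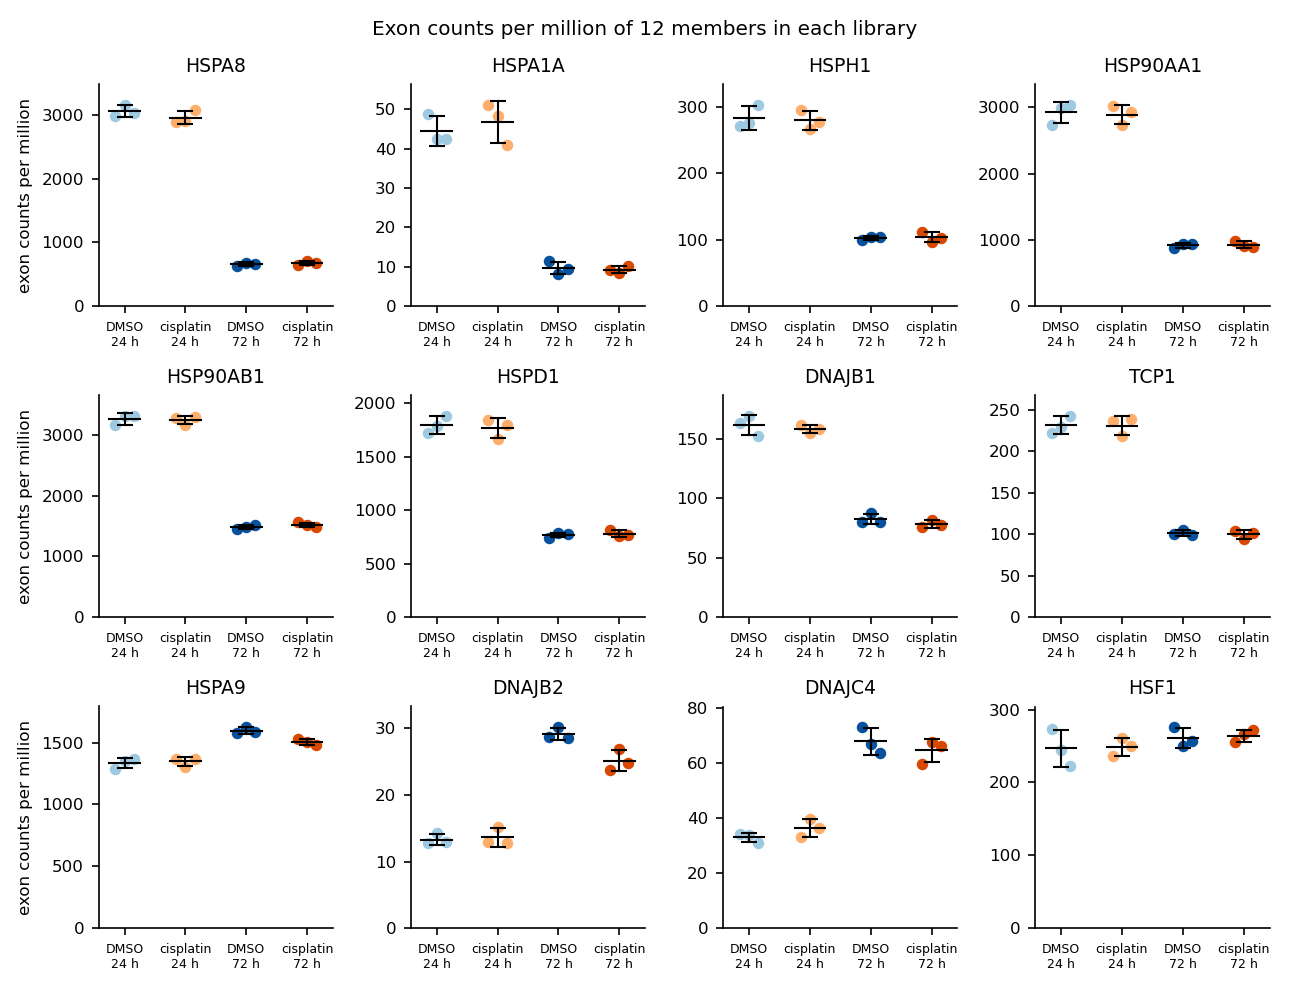
Exon CPM, after scaling, of 12 members in each library (points), with the group mean and SD (lines; n = 3). In 8 of the panels, from HSPA8 to TCP1, the libraries of 72 h lie below those of 24 h, in the panels of HSPA9, DNAJB2 and DNAJC4 above them, and HSF1 overlaps between the times.

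The 250 bases before the start of each gene were searched for the heat shock element in the RefSeq promoters of GRCh38.p14, where 66 of the 75 members had an entry. The letters searched were GAANNTTC and TTCNNGAA, each of which holds 2 units in opposite orientation and is its own reverse complement, so that 1 search covers both strands. Where the 2 overlap by 1 unit, 3 units stand in a row. Either motif was found for 15 members (22.7%), against 11.7% of all 27305 promoters. The stretches of HSPA1A and HSPA1L overlap on opposite strands and hold the same match, which is counted for both here and below. Among genes tested on exon counts it was found for 9 of 53 members (17.0%), against 8.47% of all 8504 with a promoter entry. In all, 3 members had 3 units in a row, HSPA8, HSPA6 and DNAJB6 (4.55%, against 0.439% of all promoters, and 5.66% of the 53, against 0.317%). These are shown with HSPA1A and HSPA1B, which have 1 pair, since 4 of the 5 are the members with the largest falls in DMSO; capitals mark the motifs. The promoter of HSPA8 is chr11:123062137-123062386 on the minus strand, that of HSPA6 chr1:161524290-161524539 on the plus strand, that of DNAJB6 chr7:157336754-157337003 on the plus strand, that of HSPA1A chr6:31815293-31815542 on the plus strand and that of HSPA1B chr6:31827488-31827737 on the plus strand.
HSPA8: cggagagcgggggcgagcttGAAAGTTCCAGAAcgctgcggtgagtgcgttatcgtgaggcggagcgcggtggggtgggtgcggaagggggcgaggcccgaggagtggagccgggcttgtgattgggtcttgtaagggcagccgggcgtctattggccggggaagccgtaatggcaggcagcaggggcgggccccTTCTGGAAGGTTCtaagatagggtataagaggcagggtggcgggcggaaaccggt
HSPA6: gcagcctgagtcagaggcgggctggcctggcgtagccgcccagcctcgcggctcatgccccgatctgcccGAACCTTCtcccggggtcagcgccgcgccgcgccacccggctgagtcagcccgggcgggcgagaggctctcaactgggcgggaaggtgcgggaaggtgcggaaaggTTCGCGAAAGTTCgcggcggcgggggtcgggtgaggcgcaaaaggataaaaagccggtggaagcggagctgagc
DNAJB6: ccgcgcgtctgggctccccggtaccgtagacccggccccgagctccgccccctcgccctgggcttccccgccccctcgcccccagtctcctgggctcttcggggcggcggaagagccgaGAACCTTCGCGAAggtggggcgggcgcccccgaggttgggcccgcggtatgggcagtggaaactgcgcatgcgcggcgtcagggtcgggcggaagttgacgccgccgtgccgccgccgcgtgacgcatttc
HSPA1A: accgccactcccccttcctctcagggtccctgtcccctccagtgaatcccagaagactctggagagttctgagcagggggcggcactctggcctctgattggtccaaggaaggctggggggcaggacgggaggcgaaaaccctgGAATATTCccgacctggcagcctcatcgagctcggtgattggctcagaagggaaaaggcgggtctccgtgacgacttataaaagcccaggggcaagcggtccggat
HSPA1B: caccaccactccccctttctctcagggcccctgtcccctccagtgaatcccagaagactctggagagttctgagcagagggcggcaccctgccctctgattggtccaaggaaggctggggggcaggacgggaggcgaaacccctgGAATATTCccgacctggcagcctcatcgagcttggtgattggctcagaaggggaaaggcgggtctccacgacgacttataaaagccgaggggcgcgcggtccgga

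In HSPA8 the motif nearest to the start ended 42 bases before it, in HSPA6 61, in DNAJB6 118, in HSPA1A 98 and in HSPA1B 97 bases before it. DNAJB6, a J protein that suppresses aggregation of polyglutamine proteins and was named after its values were seen, fell by only -0.35 ± 0.05 on the log2 scale in DMSO, and by -0.51 ± 0.05 with cisplatin. Among the members tested on exon counts that had a promoter entry, the 3 with 3 units in a row all fell. Their median log2 change was -2.21 in DMSO and -1.72 with cisplatin, each the value of 1 gene (HSPA8 and HSPA6). HSPA6 was kept by the filter through its libraries of 24 h, so its fall and the median of -1.72 carry no weight here. Of 6 with a pair but no 3 units, 4 fell and 1 rose in each treatment, with medians of -1.10 and -1.20. The 1 that rose was CCT6B, the member with the largest rise in both treatments (1.62 and 1.67). Of 44 without a match, 24 fell in each and 8 rose in DMSO and 5 with cisplatin, with medians of -0.27 and -0.24, and these included HSP90AA1, HSPH1, HSPE1 and DNAJB1. Over all genes tested, members among them, in DMSO 40.7% fell of 27 with 3 units, 34.2% of 693 with a pair only and 32.8% of 7784 without a match, with medians of 0.03, 0.02 and 0.01. With cisplatin 44.4, 32.2 and 32.1% fell, with medians of -0.03, 0.03 and 0.00. No test compared the classes. A match describes these letters only, and a missing match says nothing of binding, since the RefSeq start need not be the start in use and elements may lie elsewhere. HSF1, the factor itself, had 273, 244 and 223 exon CPM in DMSO at 24 h and 277, 249.7 and 257 at 72 h. Its libraries overlapped between the times, and neither the log2 change of 0.08 ± 0.06 in DMSO nor that of 0.09 ± 0.06 with cisplatin passed the threshold; without the first DMSO library of 24 h, the change in DMSO passed (0.16).

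HSP90 genes fell in both treatments. HSP90AA1 (ENSG00000080824, chr14:102080742-102139699, minus strand), which overlaps WDR20 on the opposite strand, had 2740.1, 2991 and 3039.7 exon CPM in DMSO at 24 h and 877, 938 and 944 at 72 h. With cisplatin it had 3013, 2730.1 and 2927, then 989, 911 and 892. All libraries of 72 h were lower, by 3.18-fold in DMSO (log2 change -1.67 ± 0.05, edgeR adjusted p = 1.47e-17) and 3.10-fold with cisplatin (-1.63 ± 0.05). HSP90AB1 (ENSG00000096384, chr6:44246166-44253888, plus strand) had 3152, 3311 and 3312 in DMSO at 24 h and 1446, 1480.4 and 1517 at 72 h, and 3268, 3164 and 3294 and then 1558, 1518 and 1485 with cisplatin. It too was lower in every library of 72 h, but by less, -1.14 ± 0.04 in DMSO and -1.09 ± 0.04 with cisplatin.

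The mitochondrial chaperonin HSP60 (HSPD1) and its lid HSP10 (HSPE1) are encoded head to head on chromosome 2. HSPD1 had 1719.9, 1791 and 1886 exon CPM in DMSO at 24 h and 744, 787 and 779 at 72 h. HSPE1 had 83.2, 96.6 and 106 and then 31.0, 32.3 and 23.6. Both were lower at 72 h without overlap, HSPD1 by -1.22 ± 0.05 and HSPE1 by -1.73 ± 0.10 on the log2 scale. With cisplatin the changes were -1.18 ± 0.05 and -1.94 ± 0.10. HSPE1 overlaps the read-through gene HSPE1-MOB4 on the same strand, and HSPD1 overlaps both on the opposite strand, so the counts of all 3 are uncertain. In exon counts HSPE1-MOB4 did not pass in either treatment, with log2 changes of -0.28 ± 0.16 and -0.31 ± 0.16. It passed in DMSO without the first library of 24 h (-0.42) or the second of 72 h (-0.45), and with cisplatin without the second library of 24 h (-0.50) or with no filter on low counts (-0.31).

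Of the 10 genes for the cytosolic chaperonin, 9 were tested, of which 8 fell (88.9%, against 32.5 and 31.5% of all genes) and 1 rose in each treatment. TCP1 (CCT1) fell most of its subunits, from 222, 229 and 243 exon CPM in DMSO at 24 h to 100.3, 105 and 99.2 at 72 h. Its log2 change was -1.19 ± 0.06 in DMSO and -1.21 ± 0.06 with cisplatin. The other subunits CCT2, CCT3, CCT4, CCT5, CCT6A, CCT7 and CCT8 fell by less, between -0.42 (CCT4) and -0.72 (CCT6A) in DMSO and between -0.42 (CCT4) and -0.78 (CCT6A) with cisplatin. As an example, CCT5 had 1111, 1158 and 1119 exon CPM in DMSO at 24 h and 706, 734 and 704 at 72 h, with no overlap. CCT6B, a paralog of CCT6A known from testis, went the other way at a level near the limit of these libraries. It had 0.307, 0.698 and 0.593 in DMSO at 24 h and 1.51, 1.78 and 1.63 at 72 h, and 0.743, 0.557 and 0.175 and then 1.47, 1.72 and 1.84 with cisplatin. Its libraries did not overlap between the times, with log2 changes of 1.62 ± 0.34 and 1.67 ± 0.33, and its reads could also come from genes that overlap it on the other strand.

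Of the 4 DNAJA genes, 2 fell in DMSO and 3 with cisplatin. DNAJA1 went from 558, 572 and 593 exon CPM in DMSO at 24 h to 311, 278 and 265 at 72 h, without overlap (log2 change -1.01 ± 0.06, and -1.20 ± 0.06 with cisplatin). Of 6 DNAJB genes tested, 2 fell and 1 rose in DMSO, and 3 fell and 1 rose with cisplatin; for all genes the shares were 32.5% lower and 32.6% higher in DMSO and 31.5 and 32% with cisplatin. DNAJB1 (HSP40), the classical stress-inducible partner of HSP70, had 163, 169 and 152 in DMSO at 24 h and 79.8, 87.7 and 79.8 at 72 h. It was lower in all libraries of 72 h, by -0.97 ± 0.06 in DMSO and by -1.01 ± 0.06 with cisplatin.

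DNAJB2, which is best known from neurons and helps to pass clients to the proteasome, moved in the opposite direction. DNAJB2 (ENSG00000135924, chr2:219279342-219286898, plus strand) had 12.7, 14.2 and 12.9 exon CPM in DMSO at 24 h and 28.7, 30.2 and 28.6 at 72 h. With cisplatin it had 12.9, 15.2 and 12.7, then 23.7, 26.8 and 24.8. All libraries of 72 h were higher, by 2.18-fold in DMSO (log2 change 1.13 ± 0.09, edgeR adjusted p = 6.86e-11) and by 1.83-fold with cisplatin (0.87 ± 0.09).

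Of 22 DNAJC genes tested, 7 rose and 7 fell in DMSO, and 4 rose and 5 fell with cisplatin, with medians of 0.01 and 0.02. The shares in DMSO, 31.8% each way, are those of all genes (32.6% higher and 32.5% lower) and no result about the family, and with cisplatin 18.2 and 22.7% are below those of all genes (32 and 31.5%). DNAJC9, named after its values were seen, had the largest fall of the family, with log2 changes of -1.11 in DMSO and -1.24 with cisplatin. In DMSO, it went from 125, 132 and 141 exon CPM at 24 h to 64.1, 63.1 and 58.2 at 72 h. DNAJC4 had 34.2, 33.7 and 31.0 exon CPM in DMSO at 24 h and 73.1, 66.7 and 63.5 at 72 h. It was higher in each library of 72 h, by 1.03 ± 0.08 on the log2 scale in DMSO and 0.82 ± 0.07 with cisplatin, but it overlaps NUDT22 on the same strand. DNAJC18 rose from 26.3, 23.8 and 24.8 to 43.2, 42.5 and 43.0 in DMSO (log2 change 0.78 ± 0.07, and 0.61 ± 0.06 with cisplatin). DNAJC27, a J protein with a small GTPase domain, rose by 0.81 ± 0.15 in DMSO and 0.75 ± 0.14 with cisplatin. DNAJC1 rose by 0.43 ± 0.07 and 0.17 ± 0.07, and its rise with cisplatin did not pass without the second (0.12) or the third (0.15) library of 24 h, or the first (0.15) or second (0.12) of 72 h. DNAJC28 had a log2 change of 0.82 ± 0.33 in DMSO at a mean of 25.2 counts per library (edgeR adjusted p = 0.0331), which did not pass in DESeq2 or with no filter on low counts (0.82 in both). Nor did it pass without the first (0.71) or second (0.83) DMSO library of 24 h, or the first (0.86), second (0.81) or the third (0.80) of 72 h.

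HSPG2, the proteoglycan gene, had 38.8, 30.0 and 34.2 exon CPM in DMSO at 24 h and 20.4, 20.7 and 21.2 at 72 h, and 31.9, 38.9 and 30.4 and then 26.9, 24.7 and 30.5 with cisplatin. It was lower at 72 h in all DMSO libraries (log2 change -0.72 ± 0.10), while with cisplatin the highest library of 72 h exceeded the lowest of 24 h (-0.32 ± 0.10). This fall with cisplatin did not pass without the second library of 24 h (log2 change -0.20).

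Whether time acted differently in the 2 treatments was tested by an interaction in edgeR. For 0 of the 59 members did it pass, and for 0% of all genes, with 9 members at an unadjusted p under 0.05 (15.3%, against 9.43% of all genes). DESeq2 called 0 members, but gave an adjusted p for only 23 of the 59 and for 1535 of 10443 genes. The smallest unadjusted p, 0.000461, belonged to DNAJC19, named above. It had 14.1, 13.6 and 13.1 exon CPM at 24 h and 21.6, 22.2 and 17.1 at 72 h in DMSO, and 16.3, 14.6 and 16.2 and then 15.6, 15.8 and 15.8 with cisplatin. Libraries of 72 h were higher without overlap in DMSO and overlapped those of 24 h with cisplatin. The interaction of -0.55 ± 0.14 on the log2 scale had an edgeR adjusted p of 0.454, so a difference between the treatments was not shown.

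Intron counts of the same genes were tested in the same way. By edgeR, 6 of 50 members rose and 22 fell in DMSO between 24 and 72 h (56%), against 33.4% of all 9618 genes, 17.2% higher and 16.2% lower. With cisplatin 5 rose and 21 fell (52%), against 31.8% of all genes, 16.4% higher and 15.4% lower. The medians of the members were -0.40 and -0.37, and those of all genes -0.01 and -0.02. For cisplatin against DMSO 0 members passed at 24 h, against 0.0208% of all genes, with 2 at an unadjusted p under 0.05 (4%, against 5.00% of all genes). At 72 h likewise 0 passed, against 0.0416%, with 7 at an unadjusted p under 0.05 (14%, against 6.46%). DESeq2 called 0 at each time, but at 72 h it gave an adjusted p for only 12 of the 50 members and 1413 of 9617 genes. With no filter on low counts, HSPG2 passed at 72 h (log2 difference 0.48; 1 of 61 members, against 0.139% of all genes), and also in a fit to the 6 libraries of 72 h (0.47; 1 of 48, against 0.271%). The interaction on intron counts passed for 0 members by edgeR, against 0.0416% of all genes, with 4 at an unadjusted p under 0.05 (8%, against 5.71%) and 0 by DESeq2, and for HSPG2 with no filter on low counts (0.71; against 0.0805% of all genes).

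HSPA8 introns had 297, 302 and 321 intron CPM in DMSO at 24 h and 63.4, 75.6 and 54.2 at 72 h. The libraries did not overlap, and the log2 change of -2.27 ± 0.12 was close to that of its exons, as it was with cisplatin (-2.24 ± 0.12). In DNAJB2 the intron counts went up from 277, 288 and 254 to 650.3, 583 and 631 in DMSO, by 1.19 ± 0.09 on the log2 scale. Intron counts made up a mean of 59.7% of the exon plus intron counts of DNAJB2 in DMSO at 24 h. In these libraries the share was 62.3% for HSPE1, 0.723% for HSPA8 and 6.49% for all genes together. What part of such intron counts comes from unspliced RNA was not tested. HSPA9 rose in introns too, by 0.40 ± 0.11. Among the 50 members tested on both, 19 fell and 5 rose in exons and introns alike in DMSO (65.5 and 55.6% of those that did so in exons), 20 fell and 3 rose with cisplatin (69.0 and 42.9%), and 0 moved in opposite directions past the threshold in either treatment. Of all 9156 genes tested on both, 36.5% of the exon falls and 40.2% of the exon rises in DMSO were also called in introns, and 34.4 and 38.4% with cisplatin, while 138 and 156 genes (1.51 and 1.70%) moved in opposite directions. DNAJC10, an oxidoreductase of the endoplasmic reticulum, rose in introns, from 36.5, 32.1 and 36.1 to 61.1, 57.4 and 52.9 in DMSO (0.71 ± 0.17), while its exon counts had a log2 change of 0.04 ± 0.07.

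**Figure D4:**
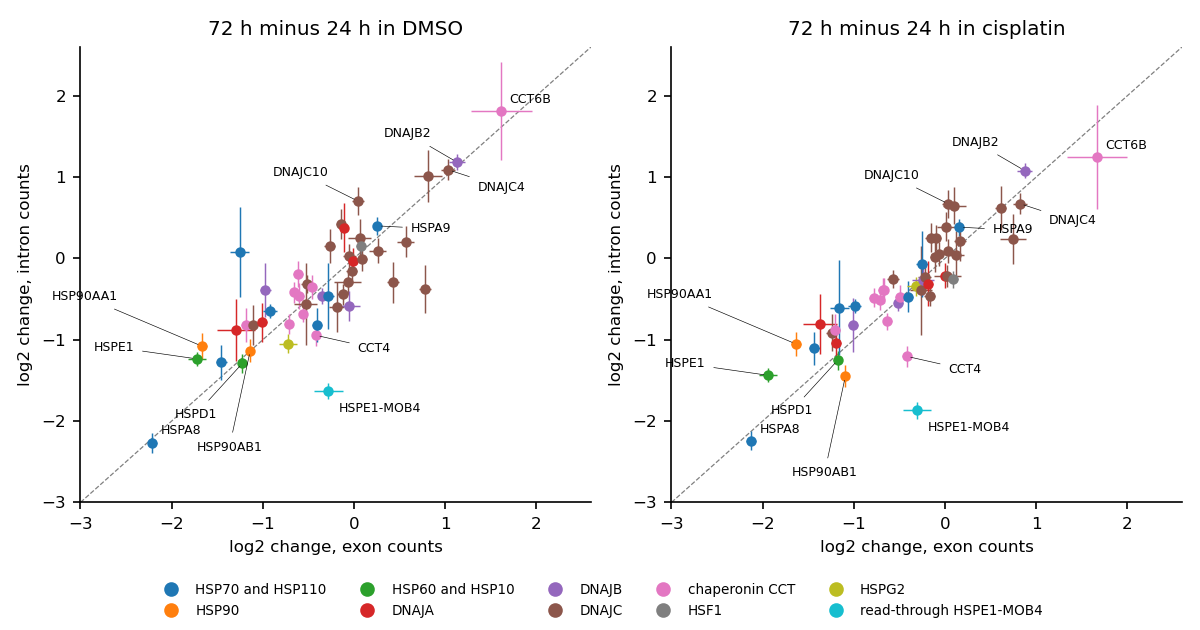
Log2 change between 24 and 72 h of exon counts (x axis) against that of intron counts (y axis) for the 50 members tested on both, with bars of 1 SE and a dashed line where the changes are equal. HSPA8 lies near the line at the lower left and DNAJB2 near it at the upper right, while HSPE1-MOB4, whose intron counts nearly equal the exon counts of HSPE1, lies well below it.

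The ratio of exon to intron counts was then tested within genes. By edgeR, which includes the spread between replicates, it rose for 4 of 50 members and fell for 3 between 24 and 72 h in DMSO (14%), against 11.5% of all 9393 genes, 8.08% higher and 3.37% lower. With cisplatin again 4 rose and 3 fell, against 12%, 8.39% higher and 3.57% lower. These shares are near the background. The ratio was fitted without TMM scaling, so its middle is not held near 0. In DMSO and with cisplatin the median log2 change was 0.10 and 0.11 over all genes, and -0.002 and -0.01 over the members. HSPE1-MOB4 had the largest rise. Its intron counts fell from 1153, 1421 and 1400.1 CPM in DMSO at 24 h to 463, 475 and 352 at 72 h, with a log2 change of -1.63 ± 0.10, against -0.28 for its exon counts. In each of the 12 libraries these intron counts were 0 to 3.74% above the exon counts of HSPE1, which it overlaps on the same strand, so the ratio sets the exon counts of HSPE1-MOB4 against values nearly equal to those of HSPE1 exons. This gene makes up 1 of the 4 rises in each treatment and 1 of the intron falls above. The log2 change of the ratio was 1.43 ± 0.17 in DMSO and 1.63 ± 0.16 with cisplatin. For CCT4 it rose in both treatments, by 0.60 ± 0.14 and 0.86 ± 0.13. HSP90AA1 fell in the ratio, by -0.52 ± 0.13 and -0.51 ± 0.12, as did DNAJC10 (-0.58 ± 0.16 and -0.54 ± 0.16) and HSPE1 (-0.41 ± 0.12 and -0.45 ± 0.12). The high share of intron counts in HSPE1, given above, leaves the meaning of its ratio uncertain. In DMSO, the other rises were DNAJC18 (1.23 ± 0.27) and DNAJC1 (0.80 ± 0.24), and with cisplatin they were HSP90AB1 (0.43 ± 0.12) and HSF1 (0.40 ± 0.13). The count of 7 went to 4 in DMSO without the second library of 24 h, and with cisplatin to 4 without the first library of 24 h or the first or second of 72 h. Whether the ratio changed differently in the 2 treatments was tested in the same fit, and 0 members passed, against 0% of all genes, with 4 at an unadjusted p under 0.05 (8%, against 4.56%).

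For cisplatin against DMSO, edgeR found 0 of 50 members with a changed ratio at 24 h, against 0% of all genes, and 0 at 72 h, against 0.0213%. At an unadjusted p under 0.05 there were 3 members (6%, against 6.33% of all genes) and 5 (10%, against 6.24%). Median log2 differences at 24 and 72 h were -0.05 and -0.13 for the members and -0.09 and -0.08 for all genes. Logistic regression, the test in the methods of the study, treats reads as independent and leaves out the spread between replicates. It called 6 of 51 members at 24 h, all lower with cisplatin, against 11.5% of all genes (0.765% higher and 10.7% lower), and at 72 h 2 higher and 9 lower of 51, against 11.4% (1.73% higher and 9.7% lower). For time, it called 11 higher and 8 lower of 51 in DMSO, against 33.7% (22.5% higher and 11.1% lower), and 11 higher and 8 lower of 52 with cisplatin, against 40.6% (29% higher and 11.6% lower). With a dispersion for each gene taken from the replicates (quasi-binomial), 0 members passed in each of these 4 comparisons. Nor did this test call many genes at all: 0% for cisplatin at either time, 0.657% for time in DMSO and 0.988% with cisplatin. HSF1 was lower in the ratio with cisplatin at 24 h (log2 -0.32) and higher at 72 h (0.16) by logistic regression only.

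Partner genes outside the symbol rule were read from fixed lists. Of 23 co-chaperones of HSP70 and HSP90 tested on exon counts, 14 fell and 4 rose in DMSO and 13 fell and 3 rose with cisplatin, with medians of -0.38 and -0.43. The shares that fell were 60.9 and 56.5%, and those that rose 17.4 and 13.0%, against the 32.5 and 31.5% lower and 32.6 and 32% higher of all genes, whose medians were 0.01 and 0.02. Those that fell include AHSA1, the activator of the HSP90 ATPase (-1.17 ± 0.05 in DMSO), FKBP4, a peptidyl-prolyl isomerase of HSP90 (-1.06 ± 0.05), STIP1, which links HSP70 to HSP90 (-0.97 ± 0.05), and BAG3 (-0.75 ± 0.06). HSPBAP1 rose (0.86 ± 0.09), but it is named after HSPB1 and not after HSP70 or HSP90, and came into these counts with the list. Of 15 genes of prefoldin, which hands nascent actin and tubulin to CCT, and of other CCT partners and tubulin cofactors, 6 fell and 4 rose in DMSO and 8 fell and 0 rose with cisplatin, with medians of -0.09 and -0.17. The shares in DMSO, 40% lower and 26.7% higher, are near those of all genes and no result about this list, and with cisplatin 53.3% fell. Here TBCD fell (-0.89 ± 0.05) and PFDN5 rose in DMSO (0.27 ± 0.08).

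Of 12 heat shock factors and HSF1 targets outside the rule, 8 fell and 3 rose in DMSO, and the counts were the same with cisplatin, with medians of -0.44 and -0.40 (66.7% lower and 25% higher, against 32.5 and 32.6% of all genes in DMSO and 31.5 and 32% with cisplatin). CACYBP (-0.82 ± 0.06) and the collagen chaperone SERPINH1 (-0.72 ± 0.05) fell in DMSO, and HMOX1, the heme oxygenase, rose (1.25 ± 0.06). CRYAB, a small heat shock protein, was among those that fell, at only 0 to 3.68 exon CPM in any library. Of 14 chaperones of the endoplasmic reticulum, 9 fell and 1 rose in each treatment, with medians of -0.30 and -0.37 (64.3% lower and 7.14% higher, beside the same shares of all genes). CALR fell (-0.88 ± 0.04), DNAJB9 rose (0.45 ± 0.08), and HSPA5 (BiP) had a log2 change of 0.00 ± 0.04 in DMSO. For cisplatin against DMSO, 0 of the 64 genes of these 4 lists passed by edgeR at either time, with 3 at an unadjusted p under 0.05 at 24 h (4.69%, against 2.49% of all genes) and 11 at 72 h (17.2%, against 12.6%), and DESeq2 called 0 at 24 h and 2 at 72 h (against 0% and 0.756% of all genes), TBCB and PFDN2, named after this was seen.

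Proliferation markers and the markers named above also moved with time. Of 11 proliferation genes, 10 fell and 0 rose in each treatment, with medians of -1.28 in DMSO and -1.07 with cisplatin (90.9% lower, against 32.5 and 31.5% of all genes). RRM2, a subunit of ribonucleotide reductase, fell by -1.98 ± 0.05 and PCNA by -1.72 ± 0.06 in DMSO. Among the endothelial markers PECAM1 fell by -0.82 ± 0.05 and CDH5 by -0.56 ± 0.05 in DMSO, and CD68 rose by 0.82 ± 0.06. Of 5 epithelial markers tested, 2 rose and 2 fell in DMSO and 2 rose and 1 fell with cisplatin, KRT8 among the rises (1.29 ± 0.09) and KRT18 among the falls (-0.37 ± 0.05). Both mesenchymal markers tested, VIM and ZEB1, rose in each treatment, and 2 of 3 leukocyte markers rose and 1 fell. Over all genes 32.6% rose in DMSO and 32% with cisplatin, and the epithelial shares in DMSO, 40% each way, are near the background. The part of these markers, and of proliferation, in the changes of the chaperone genes was not tested.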

How the data were processed

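The authors trimmed reads with Trim Galore 0.6.0, aligned them to GRCh38 with HISAT2 2.1.0 and counted fragments on exons and introns of Ensembl 98 genes with HTSeq. The deposited values are these counts per gene and library, without normalization. For the counting, the methods refer to the CRIES pipeline, which was not at hand, and name no strand option themselves, so antisense overlaps are uncertain.

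Symbols, positions and exon lengths came from GENCODE 44. Exon and intron counts were tested in edgeR 4.0.16 (R 4.3.3; filterByExpr, TMM scaling, quasi-likelihood F-test), with all 12 libraries in 1 fit and Benjamini-Hochberg adjustment over all genes (threshold 0.05). The edgeR fit of the ratio had 1 term per library and took genes with 10 exon and 10 intron counts in 3 libraries. Logistic regression used the 6 libraries compared. DESeq2 1.42.0, other scaling and filters, the replicate number as a block, and leaving out each library were alternatives. Tests were first run on simulated data. Tables were handled in Python 3.11.15 with pandas 2.3.3.

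Named members are a core set, up to 5 members with the largest passing rises and falls in each comparison, the 5 highest and 5 lowest levels per length, and HSPG2. Members and lists were chosen with earlier results of these data known.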

Additional observations from a re-analysis of the deposited data

How the results depend on the processing

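Between 24 and 72 h, 43 members passed on exon counts in DMSO and 40 with cisplatin, and 42 and 40 with the replicate block. Leaving out each library in turn gave 39 to 45 and 36 to 41, and for introns 25 to 28 and 22 to 26 (28 and 26 with all libraries). The exon count for cisplatin against DMSO at 72 h was 0, but 3 without the filter on low counts, 1 with DESeq2 (adjusted p for 32 of 59 members) and 0 to 2 with 1 library left out. The intron count at 72 h was 0, but 1 without the filter and 1 in a fit to 6 libraries. For the ratio in edgeR, leaving out a library moved the count of 7 to between 4 and 8 in DMSO and between 4 and 6 with cisplatin. Logistic regression called 6, 11, 19 and 19 members, and 0 in each comparison with a quasi-binomial variance. The cause of these shifts was not tested.

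Of 128 exon values of named members, 126 kept their side of the threshold, and their direction if called or their value within 1 SE if not, in DESeq2, 124 without the filter, and 128 each with RLE scaling, in fits to 6 libraries and with the replicate block. With 1 library left out, 734 of 768 values did so, 10 called values no longer passed, 5 came to pass, 19 that did not pass moved by at least 1 SE, and 0 called values were reversed. Deviations of libraries with the same replicate number correlated between -0.108 and 0.102 on exon counts. Each cisplatin library of 72 h correlated most with the cisplatin library of 24 h of its own number (0.102, 0.0924 and 0.0463). In the other comparisons on exon counts this did not hold for every number. Whether a shared number pairs the libraries is thus uncertain. Members with few counts, such as HSPA6 and CCT6B, are limited by depth, and 6 of 10 markers of serous or Mullerian epithelium had a mean exon CPM under 1.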
